A study of Mus musculus with 12 samples.

Results

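The 10 genes described here encode the intracellular and cell surface machinery that carries the LPS signal from its receptor into the macrophage. They comprise 2 LPS co-receptors (Cd14 and Ly96), 4 TLR adaptors (Myd88, Tirap, Ticam1 and Ticam2) and 4 interleukin-1 receptor-associated kinases (Irak1, Irak2, Irak3 and Irak4). The genes were taken by symbol from the 43280 genes of the deposited table. All 10 were present, none fell below 3.39 CPM (counts scaled to the library total) in any library, and all were among the 12086 genes tested.

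LPS is handed to CD14 on the macrophage surface and passed to the complex of TLR4 and MD-2, the product of Ly96. From the plasma membrane the receptor signals through TIRAP and MYD88, which assemble the myddosome with IRAK4, IRAK2 and IRAK1 and lead to NF-kB, and from endosomes it signals through TICAM2 (TRAM) and TICAM1 (TRIF), which lead to interferon regulatory factors. IRAK3 (IRAK-M) has little or no kinase activity and is best known as an inducible brake on this pathway in macrophages.

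RNA was sequenced from bone marrow-derived macrophages (BMDM) grown with M-CSF from wild type (wt) and Treml4-/- mice, both labelled with the C57BL6 background strain. Cells received only the PBS vehicle (M0) or LPS at 100 ng/ml for 8 h (M1-8 h) or 12 h (M1-12 h), with 2 biological replicates in each of the 6 conditions and therefore 12 libraries. The Treml4 deletion is carried by the whole animal, so it was present during differentiation as well as during stimulation. The labels and methods used here give no animal ages and do not say how many mice a culture came from.

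Between 48008751 and 58500792 reads were counted on genes per library. Treml4 had 198 to 663 reads in each wt library and 0 in all 6 Treml4-/- libraries, in accordance with the labels. The macrophage genes Csf1r, Itgam, Cd68, Lyz2 and Mertk together held 6862 to 25370 CPM, and the F4/80 gene, listed as Emr1, held 1552 to 2102 CPM. Summed markers of T cells reached at most 0.0386 CPM, of B cells 0.135 CPM, of fibroblasts 1.25 CPM, of mast cells 0.244 CPM and of dendritic cells 0.835 CPM. The neutrophil list (Ly6g, Elane and Mpo) reached 43.2 CPM, almost all of it from the granule genes Elane and Mpo, since Ly6g stayed at or below 0.131 CPM. In bulk RNA, fewer cells of a type and less RNA per cell cannot be told apart.

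Levels of different genes were compared as CPM per kb of exon, with all annotated exons of a gene merged to give its length. Where the expressed transcripts are shorter than this, the level per kb is understated. The order, and the size of the ratios and shares given further on, depend on these lengths. At M0 the order was headed by Cd14 at 166 ± 32.9 CPM per kb (SD, n = 4 libraries, both genotypes), followed by Myd88 at 47.4 ± 1.85, Irak1 at 36.6 ± 1.41 and Irak2 at 25.6 ± 1.08 (SD, n = 4 each). Ticam1 (17.2 ± 1.18, SD, n = 4) and Irak3 (15.4 ± 1.12, SD, n = 4) came next and overlapped between libraries. Irak4, Tirap, Ly96 and Ticam2 closed the order, from 10.2 ± 0.547 down to 2.33 ± 0.140 CPM per kb (SD, n = 4). Apart from Ticam1 and Irak3, no neighbours in this order overlapped at M0. After LPS Irak1 dropped from the third to the sixth place, and at M1-12 h it overlapped with Ly96, whereas Irak2 held the third place at both times.

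Changes with LPS were tested as log2(CPM + 1) with limma over all 12 libraries, averaged over genotypes, and genes were called where the p adjusted by Benjamini-Hochberg (BH) was under 0.05 and the change at least 1.4-fold. At M1-8 h, 2 of the 10 genes rose and 4 fell, while 17.1% of all genes tested rose and 59.8% fell. At M1-12 h, 5 rose and 2 fell, beside 16.3% and 60.3% of all genes. The median log2 fold change of the 10 genes was 0.11 at 8 h and 0.46 at 12 h, against -0.72 and -0.76 over all genes tested. Because this general fall depends on how libraries are scaled, each change was also computed with median of ratios scaling, which centres the libraries on the typical gene. On that scale 6 of the 10 genes rose and 1 fell at 8 h (31.1% and 31.3% of all genes), and 8 rose and 1 fell at 12 h (32.6% and 32.6% of all genes). Cd14 and Myd88 at 8 h, Myd88, Ly96, Ticam1, Irak2 and Irak3 at 12 h, and Irak1 at both times were called in the same direction under both scalings.

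**Figure D1:**
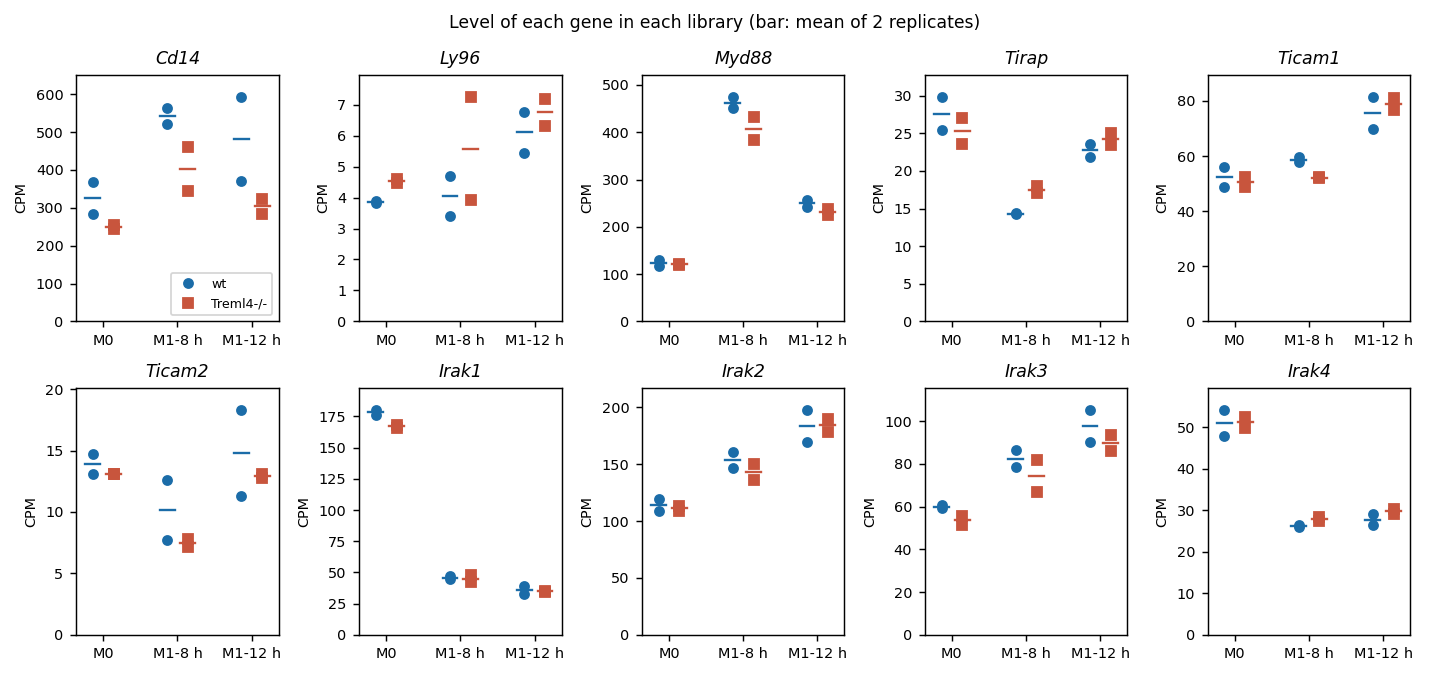
CPM of each of the 10 genes (y axis, starting at 0) in each of the 12 libraries by condition (x axis), with circles for wt, squares for Treml4-/- and a bar at the mean of 2 replicates. Myd88 peaks at M1-8 h between 384 and 475 CPM, Irak1 drops from at least 166 CPM at M0 to at most 47.7 CPM after LPS, and Irak2 and Irak3 climb with time.

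Cd14 encodes the GPI-anchored protein that delivers LPS to the receptor, and it lies on chromosome 18 of GRCm38 from 36725067 to 36726798 (minus strand). In wt cells it measured 284 and 370 CPM at M0, 563 and 521 CPM at M1-8 h and 371 and 593 CPM at M1-12 h. In Treml4-/- cells it measured 254 and 245 CPM at M0, 460 and 344 CPM at M1-8 h and 324 and 284 CPM at M1-12 h. Within each genotype both 8 h libraries were above both M0 libraries in wt and in Treml4-/- cells. Cd14 rose at 8 h by 0.71 ± 0.15 (log2 fold change ± SE, BH-adjusted p = 6.7e-04 by limma). At 12 h its log2 fold change of 0.41 ± 0.15 did not reach the minimum fold change, and wt replicate 1 at M1-12 h was the low library of its pair. Without that library the value was 0.58 and was called, and without wt M0 replicate 2 it was 0.50 and was called. Leaving out 1 library at a time gave values from 0.24 to 0.58. In the wt libraries alone the change of 0.53 was called. In the Treml4-/- libraries alone the change of 0.28 did not pass the test (BH-adjusted p = 0.214 by limma). Median of ratios scaling called Cd14 higher at both times, with 1.26 at 12 h, whereas quantile scaling called it higher at 8 h only.

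Ly96, whose product MD-2 holds the lipid part of LPS, lies on chromosome 1 of GRCm38 from 16688051 to 16709611 (plus strand) and had the lowest mean CPM of the 10 genes in each of the 6 conditions. It measured 3.90 and 3.82 CPM in wt and 4.48 and 4.58 CPM in Treml4-/- cells at M0. At M1-12 h it measured 6.77 and 5.44 CPM in wt and 7.19 and 6.32 CPM in Treml4-/- cells, above every M0 library. Ly96 rose at 12 h by 0.51 ± 0.15 (log2, SE, BH-adjusted p = 0.00758 by limma), but without wt M1-12 h replicate 1 (0.45) or Treml4-/- M1-12 h replicate 1 (0.47) it fell short of the minimum fold change. In the Treml4-/- libraries alone the 12 h change was 0.48 and did not pass the test (BH-adjusted p = 0.0546 by limma). At M1-8 h the replicates spread from 3.39 to 4.70 CPM in wt and from 3.91 to 7.25 CPM in Treml4-/- cells. The 8 h log2 fold change of 0.12 ± 0.15 did not pass the test, and it turned to -0.06 without Treml4-/- M1-8 h replicate 2, the library at 7.25 CPM. With median of ratios scaling Ly96 was called higher at 8 h as well, at 0.75.

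Myd88, the adaptor shared by most Toll-like receptors and by the interleukin-1 receptor, was the largest riser of the 10 genes at both times under library total scaling. It lies on chromosome 9 of GRCm38 from 119335934 to 119341411 (minus strand). In wt cells it measured 118 and 129 CPM at M0, 475 and 450 CPM at M1-8 h and 241 and 258 CPM at M1-12 h, and in Treml4-/- cells 121 and 120 CPM, 432 and 384 CPM, and 225 and 237 CPM. All 4 libraries at 8 h were above all 4 at 12 h, and these were above all 4 at M0. Myd88 rose by 1.82 ± 0.06 at 8 h (log2, SE, BH-adjusted p = 1.2e-10) and by 0.97 ± 0.06 at 12 h (BH-adjusted p = 2.2e-08, both by limma). Scaled by median of ratios, these values were 2.61 and 1.81. Its annotated exons share 290 bases, or 11.3% of their length, with Acaa1a on the opposite strand, and whether reads were counted by strand is not given in the sources used here.

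Tirap encodes the bridging adaptor that brings MYD88 to TLR4 at the plasma membrane and lies on chromosome 9 of GRCm38 from 35184551 to 35200291 (minus strand). In wt cells it measured 29.8 and 25.4 CPM at M0, 14.2 and 14.3 CPM at M1-8 h and 23.6 and 21.9 CPM at M1-12 h. In Treml4-/- cells it measured 23.6 and 27.0 CPM at M0, 17.0 and 18.0 CPM at M1-8 h and 25.1 and 23.4 CPM at M1-12 h. The 4 libraries at 8 h lay below all others, whereas the 12 h libraries overlapped with M0. Tirap fell at 8 h by 0.70 ± 0.08 on the log2 scale (BH-adjusted p = 4.0e-06 by limma), and at 12 h its log2 fold change was -0.16 ± 0.08 (not called). This direction depended on the scaling, since with median of ratios scaling the values were 0.06 (not called) and 0.65 (called), so that Tirap moved with the typical gene at 8 h and above it at 12 h.

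Ticam1 encodes TRIF, the adaptor of the endosomal branch, and lies on chromosome 17 of GRCm38 from 56269319 to 56276786 (minus strand). It spanned 48.7 to 56.1 CPM at M0, 52.1 to 59.5 CPM at M1-8 h and 69.6 to 81.4 CPM at M1-12 h. The M0 and 8 h ranges overlapped, and all 4 libraries at 12 h were above both. Ticam1 had a log2 fold change of 0.10 ± 0.07 at 8 h (not called) and rose by 0.57 ± 0.07 at 12 h (SE, BH-adjusted p = 1.0e-05 by limma). Scaled by median of ratios, Ticam1 was called higher at both times, at 0.88 and 1.41.

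Ticam2 encodes TRAM, which links TLR4 to TRIF, and lies on chromosome 18 of GRCm38 from 46557291 to 46574533 (minus strand). It spanned 13.1 to 14.7 CPM at M0, 7.17 to 12.6 CPM at M1-8 h and 11.3 to 18.3 CPM at M1-12 h. The highest of the 8 h libraries, wt replicate 2, stood apart from the other three, which were at most 7.79 CPM. Ticam2 fell at 8 h by 0.59 ± 0.16 on the log2 scale (BH-adjusted p = 0.00378 by limma), and it did not reach the minimum fold change without wt M1-8 h replicate 1 (-0.43). Its log2 fold change was 0.01 ± 0.16 at 12 h (not called), and without wt M1-12 h replicate 2 it was -0.15. In the wt libraries alone the 8 h change of -0.45 did not pass the test (BH-adjusted p = 0.0775 by limma). With median of ratios scaling it was 0.14 at 8 h (not called) and 0.80 at 12 h (called), so the fall at 8 h was present under library total scaling only. Ticam2 shares 838 exon bases, or 14.5% of its exon length, with Tmed7 on the same strand, which was measured at 62.6 to 85.6 CPM, and its values are uncertain to the extent that counting split reads between these genes.

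Irak1 encodes a myddosome kinase that is degraded after activation of the pathway, and it lies on chromosome X of GRCm38 from 74013914 to 74023918 (minus strand). In wt cells it measured 176 and 180 CPM at M0, 46.8 and 44.9 CPM at M1-8 h and 32.5 and 39.2 CPM at M1-12 h. The Treml4-/- replicates were at 168 and 166 CPM before LPS, then at 47.7 and 42.0 CPM, and finally at 35.2 and 34.3 CPM. No library at 8 h overlapped with M0 or with 12 h. Irak1 fell by 1.91 ± 0.07 at 8 h (log2, SE, BH-adjusted p = 2.7e-10) and by 2.26 ± 0.07 at 12 h (BH-adjusted p = 7.4e-11, both by limma). Scaled by median of ratios, the log2 fold changes were -1.12 and -1.42, both called, so Irak1 was lower under either scaling.

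Irak2, the kinase tied to sustained signalling in macrophages, lies on chromosome 6 of GRCm38 from 113638467 to 113695026 (plus strand). Its wt replicates were at 109 and 119 CPM before LPS, at 146 and 160 CPM after 8 h and at 170 and 197 CPM after 12 h. Its Treml4-/- replicates were at 109 and 113 CPM, 150 and 136 CPM, and 179 and 190 CPM. The libraries of the 3 times did not overlap. Its log2 fold change at 8 h was 0.39 ± 0.07 (BH-adjusted p = 2.0e-04 by limma), below the minimum fold change, and at 12 h it rose by 0.70 ± 0.07 (BH-adjusted p = 1.3e-06 by limma). Both times were called with median of ratios scaling, at 1.18 and 1.54.

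Irak3, the IRAK-M brake, lies on chromosome 10 of GRCm38 from 120141648 to 120202130 (minus strand) and followed a course like that of Irak2. It spanned 51.4 to 60.7 CPM at M0, 66.6 to 86.6 CPM at M1-8 h and 86.1 to 105 CPM at M1-12 h. The M0 libraries lay below all others, and 8 h and 12 h touched only where the highest 8 h library (86.6 CPM) passed the lowest 12 h library (86.1 CPM). The log2 fold change was 0.45 ± 0.08 at 8 h (BH-adjusted p = 2.3e-04 by limma, below the minimum fold change). Leaving out wt M1-8 h replicate 1 (0.49) or Treml4-/- M1-8 h replicate 2 (0.53) brought it above that minimum. At 12 h Irak3 rose by 0.71 ± 0.08 (BH-adjusted p = 5.0e-06 by limma), and with median of ratios scaling both times were called, at 1.24 and 1.55. Its exons share 192 bases with Tmbim4 on the opposite strand.

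Irak4, the kinase that MYD88 recruits first, lies on chromosome 15 of GRCm38 from 94543643 to 94581815 (plus strand). It spanned 47.9 to 54.1 CPM at M0, 26.0 to 28.3 CPM at M1-8 h and 26.4 to 30.2 CPM at M1-12 h, so the LPS libraries lay together, well below M0. Irak4 fell by 0.89 ± 0.07 at 8 h (log2, SE, BH-adjusted p = 9.6e-08) and by 0.81 ± 0.07 at 12 h (BH-adjusted p = 2.1e-07, both by limma). These falls were close to the median of all genes, and with median of ratios scaling the log2 fold changes were -0.11 and 0.02, neither of them called. Irak4 shares 395 exon bases, or 7.9% of its exon length, with Twf1 on the opposite strand.

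**Figure D2:**
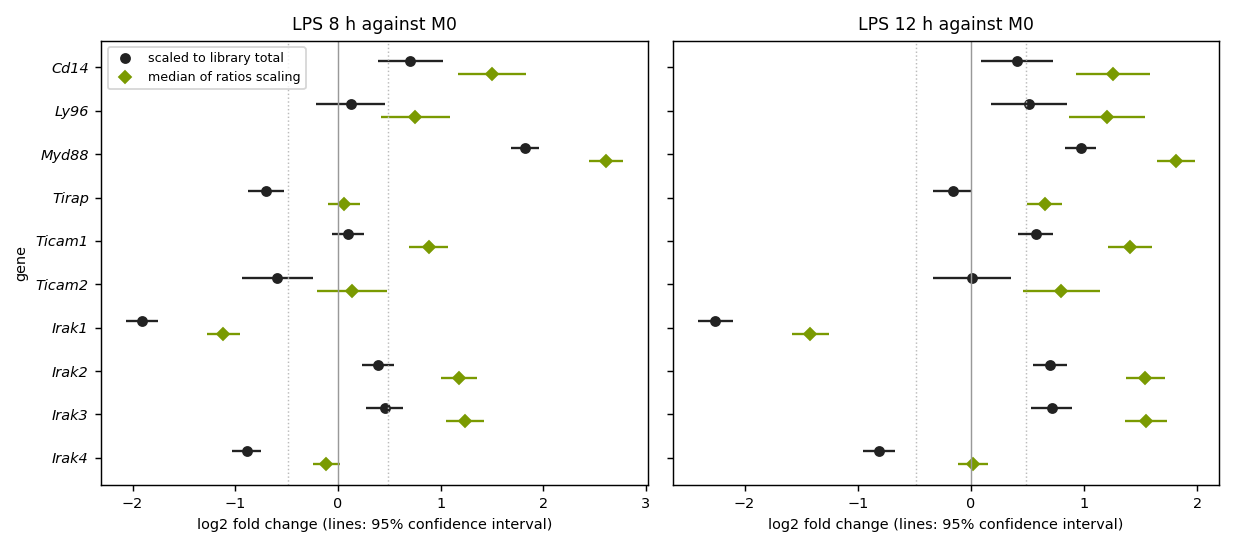
Log2 fold change at 8 h (left) and 12 h (right) of LPS against M0 for each of the 10 genes, with its 95% confidence interval, scaled to the library total (circles) or by median of ratios (diamonds), and with dotted lines at a fold change of 1.4 for either direction. Myd88 lies right of zero and Irak1 left of it under both scalings at both times, while Tirap moves from -0.70 to 0.06 at 8 h with the scaling.

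Between the M1-8 h and M1-12 h libraries, Tirap and Ticam2 rose and Myd88 fell, while 13.5% of all genes rose and 18.7% fell. Of the other 7 genes, Ticam1, Irak1, Irak2, Irak3 and Ly96 had a BH-adjusted p under 0.05 but changed by less than the minimum fold change, and Cd14 and Irak4 did not pass the test. Without that minimum 8 of the 10 genes were called, beside 60.3% of all genes. Myd88 fell by 0.85 ± 0.06 on the log2 scale (BH-adjusted p = 6.9e-07 by limma), and it was the only called decline among the 10 genes under library total and median of ratios scaling alike. Tirap rose by 0.54 ± 0.08 (BH-adjusted p = 1.3e-04 by limma), but in the Treml4-/- libraries alone its log2 change was 0.45, below the minimum fold change. Ticam2 rose by 0.60 ± 0.16 (BH-adjusted p = 0.00611 by limma), but by 0.44 and below the minimum fold change without wt M1-8 h replicate 1, and likewise by 0.44 without wt M1-12 h replicate 2. In the wt libraries alone its change was 0.50 and did not pass the test (BH-adjusted p = 0.0894 by limma). Ticam1, at 0.47 ± 0.07, fell just short of the minimum fold change. Leaving out wt M1-12 h replicate 2 (0.53) or Treml4-/- M1-12 h replicate 1 (0.49) brought it above that minimum. With all 12 libraries, Ticam1 was called with median of ratios scaling (0.52). It was also called in the Treml4-/- libraries alone (0.59) with library total scaling. Ly96, at 0.39 ± 0.15, was called without Treml4-/- M1-8 h replicate 2 (0.58).

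Ratios of 2 genes within a library do not depend on scaling by a common factor, as library total and median of ratios scaling are. Quantile scaling, an alternative used further on, is not of that kind. The 7 ratios taken, chosen after the values were seen, were compared between the 4 M0 libraries and the 4 libraries at each LPS time, genotypes pooled. The ratio of Irak2 to Irak1, per kb of exon, lay between 0.661 and 0.730 at M0, between 3.34 and 3.82 at M1-8 h and between 5.38 and 5.91 at M1-12 h. The ratio of Irak3 to Irak1 lay between 0.392 and 0.441 at M0, between 2.04 and 2.47 at M1-8 h and between 3.22 and 3.56 at M1-12 h. Irak2 and Irak3 were thus below Irak1 in every unstimulated library and above it in every stimulated library. The ratio of Irak4 to Irak1 moved less, from 0.25 to 0.297 at M0 up to 0.695 to 0.806 at M1-12 h. Among the adaptors, Myd88 to Tirap lay between 7.56 and 9.86 at M0, between 40.8 and 63.8 at M1-8 h and between 17.2 and 22.6 at M1-12 h, and Myd88 to Ticam1 rose from at most 2.86 to at least 8.53 at M1-8 h. In 11 of the 14 comparisons the 4 libraries of each time did not overlap, and each of these had an exact two-sided permutation p of 0.0286, the smallest that 4 against 4 libraries allow (0.0364 after BH adjustment over the 14). Neither the p-values nor their adjustment account for choosing the ratios after the values were seen. The comparisons also share genes and the M0 libraries and are not independent. The ratio of Ticam1 to Ticam2 at 12 h (p = 0.0857, exact permutation test) and that of Cd14 to Ly96 at 8 h (p = 0.229, exact permutation test) and 12 h (p = 0.571, exact permutation test) overlapped.

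**Figure D3:**
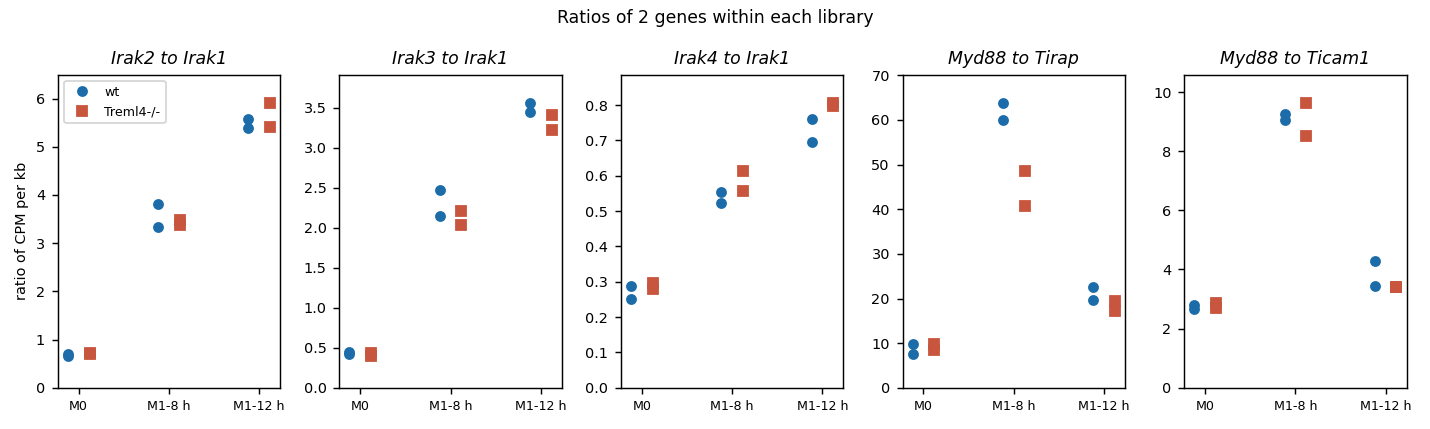
Ratio of CPM per kb of exon between 2 genes within each library (y axes, starting at 0) by condition (x axes), with circles for wt and squares for Treml4-/-. The 3 ratios to Irak1 climb from M0 to 12 h without overlap between times, and both Myd88 ratios peak at M1-8 h.

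Expressed as shares of the summed CPM per kb of the 4 IRAK genes, Irak1 held 41.7 ± 0.699% at M0 (SD, n = 4 libraries), 13.8 ± 0.690% at M1-8 h and 9.31 ± 0.174% at M1-12 h. Irak2 took the first place after LPS, with 29.1 ± 0.986% before it, 48.1 ± 0.742% after 8 h and 51.9 ± 1.49% after 12 h (SD, n = 4 each). Irak3 went from 17.6 ± 0.777% to 30.4 ± 1.27% and 31.7 ± 1.53%, and Irak4 from 11.6 ± 0.748% to 7.74 ± 0.653% and 7.12 ± 0.419% (SD, n = 4 each). These shares do not depend on scaling by a common factor within a library, but the sum of the 4 genes does. It ranged from 84.3 to 90.8 CPM per kb at M0, from 63.4 to 74.7 at M1-8 h and from 75.2 to 87.4 at M1-12 h. Scaled by median of ratios, the sum was lowest at M0, at 55.8 to 64.8 scaled CPM per kb, and reached 70.1 to 92.8 at M1-8 h and 92.4 to 107 at M1-12 h.

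**Figure D4:**
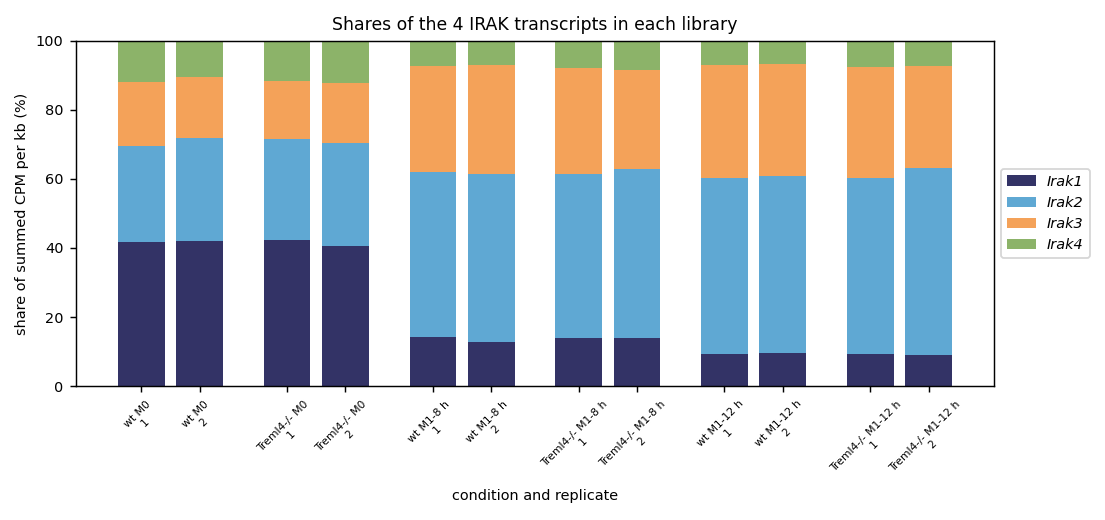
Share (%) of each of the 4 IRAK genes in their summed CPM per kb of exon, one stacked bar for each library, ordered by time and genotype. Irak1 is the largest segment in the 4 M0 libraries (40.7% to 42.3%) and shrinks to 9.16% to 9.51% at M1-12 h, with Irak2 the largest segment in all 8 LPS libraries.

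The sequences just before the RefSeq transcript starts of Myd88, Irak1 and Irak2 are shown because these genes are the largest riser, the largest faller and the gene that replaced Irak1 as the most abundant of the IRAK genes per kb. They come from the RefSeq annotation of GRCm38.p6, run 5′ to 3′ on the strand of the gene and begin 250 bases before the start. Bases next to the start that GENCODE M21 annotates as exon were left out, 23 for Myd88 (its own exon) and 15 for Irak1 (the miRNA gene Mir718), so these sequences stop short of the start, whereas that of Irak2 runs to the base before it. The Myd88 stretch is chr9:119340042-119340268 (minus strand), which lies within the longer Myd88 gene model of GENCODE, the Irak1 stretch is chrX:74023937-74024171 (minus strand) and the Irak2 stretch is chr6:113638217-113638466 (plus strand). Capitals mark matches to any of 7 motifs searched on both strands.
Myd88: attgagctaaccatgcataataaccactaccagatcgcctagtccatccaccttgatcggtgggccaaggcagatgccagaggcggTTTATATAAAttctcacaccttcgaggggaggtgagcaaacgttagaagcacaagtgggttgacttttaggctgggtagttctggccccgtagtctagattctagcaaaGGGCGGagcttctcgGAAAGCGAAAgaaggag
Irak1: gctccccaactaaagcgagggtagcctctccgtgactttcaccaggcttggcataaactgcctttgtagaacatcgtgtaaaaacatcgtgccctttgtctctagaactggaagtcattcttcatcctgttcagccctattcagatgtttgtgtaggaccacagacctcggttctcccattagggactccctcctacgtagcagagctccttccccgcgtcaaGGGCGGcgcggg
Irak2: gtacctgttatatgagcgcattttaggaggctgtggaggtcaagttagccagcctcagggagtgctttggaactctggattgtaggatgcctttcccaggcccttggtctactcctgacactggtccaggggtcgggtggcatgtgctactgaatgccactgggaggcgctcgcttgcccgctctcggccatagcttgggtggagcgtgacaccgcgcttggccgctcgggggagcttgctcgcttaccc
Positions are counted back from the RefSeq start, the bases left out included. In the Myd88 stretch the capitals mark, in order, overlapping TATAAA matches on both strands, GGGCGG (GC box) and an interferon-stimulated response element (ISRE, searched as GAAA followed after 2 bases by another GAAA), the last of them 40 to 31 bases before the start. In the Irak1 stretch they mark GGGCGG 27 to 22 bases before the start, and the Irak2 stretch holds no match.

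Of all 32851 RefSeq windows of 250 bases, 2.98% held the ISRE letters, 32.74% GGGCGG and 12.37% TATAAA. The other letters searched were TGANTCA (AP-1, 6.75% of windows), TGACGTCA (CRE, 1.55%), GAGGAA (ETS, 23.25%) and the NF-kB consensus (3.9%). Windows of 7 of the 10 genes were searched, and GGGCGG was found for Myd88, Tirap, Ticam1, Irak1, Irak3 and Irak4. Tirap, Irak1 and Irak3 each had another window, which held no match for Tirap and Irak3. The shares above count windows rather than genes, so this list is not directly comparable with them. Among the 7 genes searched the ISRE letters occurred before Myd88 only and the ETS letters before Ticam1 only. These matches describe the sequence and were not tested against binding or expression.

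Genes with the most similar course over the 12 libraries were listed by Pearson r of log2(CPM + 1), as a description in which libraries share replicates and the scaling to their total. For Myd88 they were Rab43 (r = 0.998), Ube2z (r = 0.998) and Dusp5 (r = 0.997), of which Rab43 and Dusp5 had larger log2 fold changes at 8 h, 3.20 and 3.52. For Irak1 they were Tomm20, Galc and Gtf3a (each r = 0.999), and 3586 genes outside the 10 had an r over 0.95 with Irak1, against 313 for Myd88. For Tirap they were Ccdc125 (r = 0.988), Pag1 (r = 0.985) and 9930104L06Rik (r = 0.983). Cd14 had looser matches, led by Esrra (r = 0.926), Slc39a1 (r = 0.879) and Fbrsl1 (r = 0.873), and no gene passed 0.95.

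Whether Treml4 altered the levels of these genes was asked at each time. By limma with BH adjustment 0 of the 10 genes were called between wt and Treml4-/- macrophages at M0 (0.0993% of all genes were called), 0 at M1-8 h (0.091% of all genes) and 0 at M1-12 h (0.132% of all genes). An unadjusted p under 0.05 was reached by 0, 1 and 1 of the 10 genes, beside 3.35%, 21% and 7.55% of all genes. The limma-voom fit on recovered reads also called 0 at each time. Over all genes tested, the calls at M1-8 h went from 11 to 599 without Treml4-/- M1-8 h replicate 1, those at M0 from 12 to 220 without wt M0 replicate 1, and those at M1-12 h from 16 to 79 without wt M1-12 h replicate 1, and 0 of the 10 genes were called in each of these fits. Log2 differences (wt over Treml4-/-) ranged from -0.19 to 0.38 at M0, from -0.35 to 0.44 at M1-8 h and from -0.13 to 0.62 at M1-12 h, and the widest 95% confidence limits over all 10 genes and 3 times were -0.82 and 1.08.

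Cd14 was the gene with the largest difference at each time. Its CPM were higher in both wt replicates than in both Treml4-/- replicates in all 3 conditions. The log2 difference was 0.38 ± 0.21 (SE) before LPS, 0.44 ± 0.21 after 8 h and 0.62 ± 0.21 after 12 h, and the BH-adjusted p by limma was 1, 0.244 and 0.441, so none passed the test. Averaged over the 3 times, a contrast chosen after the values were seen, the Cd14 difference was 0.48 ± 0.12 (BH-adjusted p = 0.0900 by limma), and 0 of the 10 genes were called beside 0.414% of all genes. With same-numbered libraries of a genotype as a random block, a fit chosen after the values were seen, the adjusted p was 0.114 by limma. This mean was called without wt M0 replicate 1 (0.55), without wt M1-12 h replicate 1 (0.59) or without Treml4-/- M1-8 h replicate 1 (0.55). It was not called when any other single library was left out, and the leave-out values ranged from 0.37 to 0.59.

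The summed marker lists also differed between genotypes. The macrophage list summed to 20922 to 25370 CPM in wt and 18568 to 18807 CPM in Treml4-/- cells at M0, to 8449 to 9944 and 7290 to 7739 CPM at M1-8 h, and to 7120 to 7756 and 6862 to 7124 CPM at M1-12 h, where they overlapped. Lyz2, the lysozyme gene and the most abundant of this list at each time, was higher in both wt replicates at each time, with at least 12853, 5007 and 3346 CPM in wt against at most 10466, 4254 and 3128 CPM in Treml4-/- cells. The other 4 genes of the list did not share this pattern. At M0 Itgam was higher in both wt replicates, while Csf1r (5675 to 7203 CPM in wt, 5521 to 5786 CPM in Treml4-/-), Cd68 and Mertk overlapped. At M1-8 h Cd68 was higher in both wt replicates, Itgam (1091 to 1160 against 1176 to 1237 CPM) and Mertk were lower in them, and Csf1r overlapped. At M1-12 h Csf1r was lower in both wt replicates (1224 to 1266 against 1281 to 1399 CPM), and the other three overlapped. The 3 neutrophil list genes summed to 9.60 to 26.9 CPM in wt and 31.5 to 43.2 CPM in Treml4-/- cells at M0, to 4.81 to 7.77 and 7.87 to 13.1 CPM at M1-8 h, and to 0.695 to 0.863 and 1.01 to 1.90 CPM at M1-12 h. Their part in the Cd14 difference was not tested.

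**Figure D5:**
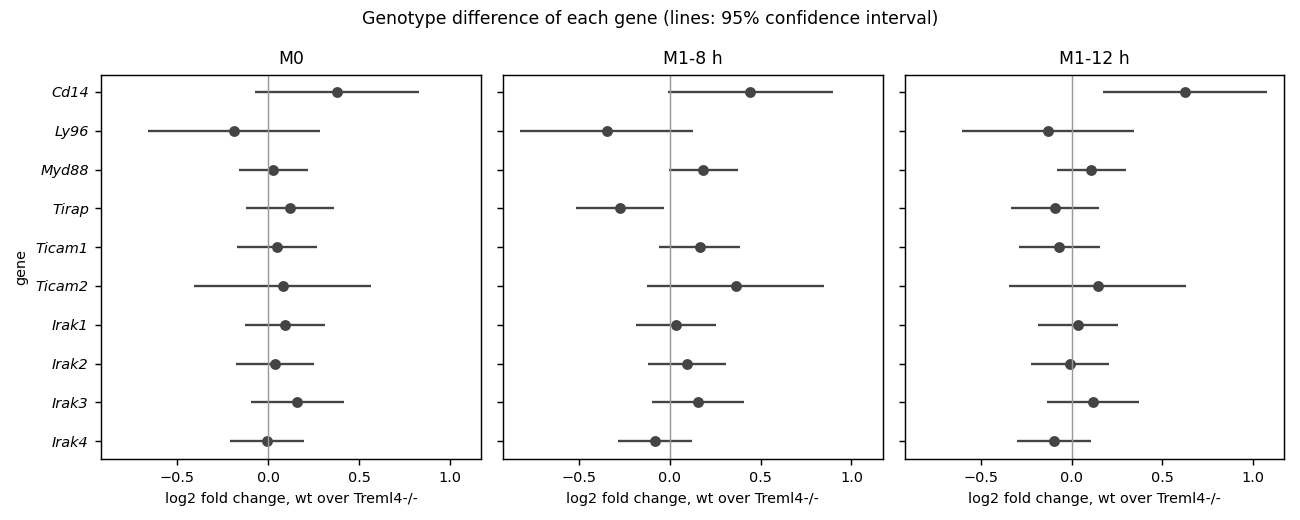
Log2 fold change of wt over Treml4-/- for each of the 10 genes (points) with its 95% confidence interval (lines) at M0, M1-8 h and M1-12 h. Cd14 is farthest to the right at each time, at 0.38, 0.44 and 0.62, and the intervals of Cd14 at M1-12 h and of Tirap at M1-8 h (-0.28) leave out zero while all the others include it.

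Tirap was lower in both wt replicates (14.2 and 14.3 CPM) than in both Treml4-/- replicates (17.0 and 18.0 CPM) at M1-8 h, a log2 difference of -0.28 ± 0.11 with an unadjusted p of 0.0299 and a BH-adjusted p of 0.205 by limma. The response to 8 h of LPS differed between genotypes by -0.40 ± 0.16 for Tirap (log2, SE, BH-adjusted p = 0.729 by limma), which did not pass the test. In this limma interaction with BH adjustment 0 of the 10 genes were called at 8 h (0.00827% of all genes) and 0 at 12 h (0.00827% of all genes), and an unadjusted p under 0.05 was reached by 1 and 0 of them. The limma-voom fit called 0 of the 10 at either time. The Myd88 response at 8 h was 1.90 ± 0.09 in wt against 1.74 ± 0.09 in Treml4-/- cells, and that of Irak1 was -1.94 ± 0.10 against -1.88 ± 0.10 (log2, SE).

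The receptor itself, Tlr4, is the partner of Cd14 and Ly96. It measured 37.0 and 33.7 CPM at M0, 20.2 and 21.2 CPM at M1-8 h and 24.3 and 18.0 CPM at M1-12 h in wt cells. In Treml4-/- cells it measured 37.7 and 39.5 CPM, 33.5 and 48.2 CPM, and 33.8 and 25.8 CPM. Averaged over genotypes, Tlr4 had a log2 fold change with LPS of -0.34 ± 0.13 at 8 h (not called). At 12 h this average fell by 0.55 ± 0.13 (BH-adjusted p = 0.00181 by limma). In the wt libraries alone the changes were -0.74 at 8 h and -0.73 at 12 h, both called. In the Treml4-/- libraries alone they were 0.06 (BH-adjusted p = 0.774 by limma) and -0.37 (BH-adjusted p = 0.0786 by limma), and neither passed the test. With median of ratios scaling the averaged changes of Tlr4 were 0.43 and 0.27, neither called. Its genotype difference at M1-8 h was -0.93 ± 0.18 (wt over Treml4-/-, BH-adjusted p = 0.104 by limma) and did not pass the test, nor did the difference of its 8 h response between genotypes, -0.80 ± 0.26 (BH-adjusted p = 0.729 by limma). Tlr4 and Cd14 were thus on opposite sides of zero in the genotype comparison at M1-8 h, both short of the threshold in this fit. With DESeq2, the paper placed Tlr4 among the inflammatory response genes that differed between genotypes after 8 h, lower in wt cells. The paper also reported more differing genes in M1 macrophages than were called here, so a gene not called here is not shown to be unchanged.

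Other genes of the pathway were taken from a list of 34, of which 31 were tested (Ube2v1, Il1rl1 and Irak1bp1 were too low). At 8 h of LPS, 8 rose, 13 fell and 10 were not called, with a median log2 fold change of -0.26, beside 17.1% and 59.8% of all genes and a median of -0.72. At 12 h 7 rose, 13 fell and 11 were not called, with a median of -0.39, beside 16.3% and 60.3% of all genes and a median of -0.76. With median of ratios scaling 15 rose and 7 fell at 8 h (31.1% and 31.3% of all genes), and 14 rose and 7 fell at 12 h (32.6% and 32.6% of all genes). Between genotypes limma called 0 of the 31 at each time, and limma-voom also called 0, while an unadjusted p under 0.05 was reached by 2, 11 and 3 of them at M0, 8 h and 12 h, beside 3.35%, 21% and 7.55% of all genes tested. The largest rises at 8 h were those of Scimp, a transmembrane adaptor of Toll-like receptors (log2 fold change 5.57), Tnfaip3, the ubiquitin-editing brake A20 (4.30), Peli1, a Pellino ubiquitin ligase that acts with IRAK kinases (2.77), and Pik3ap1, the adaptor BCAP (1.39). The largest falls were those of the other Pellino genes Peli2 (-4.66) and Peli3 (-2.27), of Cnpy3, a chaperone of Toll-like receptors (-2.36), and of Tab1, a partner of the kinase TAK1 (-1.99). The 8 changes kept their direction with median of ratios scaling, from 5.89 for Scimp to -4.03 for Peli2, so within the Pellino family Peli1 rose while Peli2 and Peli3 fell under both scalings.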

How the data were processed

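The authors aligned reads of stranded, poly(A)-selected libraries with STAR to mm10, counted them per gene with Subread in the CCBR workflow and deposited log2 CPM, that is log2 of read counts normalized to library size with a prior count. Taking away a prior of 0.25 reads gave whole reads in 100% of the values (tolerance 0.01 reads), from which CPM were computed. The design had assumed CPM, so the log2 values were first converted. The 12086 genes that reached 1 CPM in 2 or more of the 12 libraries were kept, and log2(CPM + 1) was fitted with limma 3.58.1 (R 4.3.3), using 1 coefficient for each condition and a mean-dependent prior variance. P-values were adjusted over all genes tested by the method of Benjamini and Hochberg (BH). Calls needed a BH-adjusted p under 0.05 together with at least a 1.4-fold change. The pseudocount understates changes of low genes. Replicates differed by more than sampling noise (chi-square per degree of freedom 12.0 or more). The p-values rest on the spread between the 2 cultures of a condition, pooled over the 6 conditions and moderated across genes. A pair of replicates that lies far apart is therefore judged by the pooled spread. No batch is given by the labels.

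Lists of the other pathway genes and of markers, the 10 genes themselves and the rules were chosen with earlier results of these data known. Named were the 10 genes, Treml4, Tlr4, the called pathway genes with the 4 largest changes in each direction at 8 h, and the 3 genes most correlated with each of Myd88, Irak1, Cd14 and Tirap; marker genes and genes sharing exons with the 10 were named where they touched a result. The within-library ratios, the IRAK shares and the mean genotype difference were chosen after the values were seen. The fit was also run on simulated counts with the same dispersion for all genes. The replicates here were not shown to vary in that way, so that run does not measure the errors of the fit on these data. Alternatives were other pseudocounts, filters, scalings, samples, call rules, replicate blocks, limma-voom on whole reads, the deposited log2 CPM tested without conversion, and leaving out each library. Gene positions and exon lengths are from GENCODE M21 of GRCm38, the assembly also named mm10, and figures were drawn with matplotlib.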

Additional observations from a re-analysis of the deposited data

How the results depend on the processing

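Under all alternatives run, the counts called among the 10 genes at 8 h and 12 h of LPS stayed within 1.5 times those reported. They were 5 to 8 at 8 h and 6 to 9 at 12 h, and stayed at 0 in each genotype and interaction comparison. The split by direction depended on the scaling. With library total scaling 2 rose and 4 fell at 8 h, and 5 rose and 2 fell at 12 h. With median of ratios scaling these were 6 and 1, then 8 and 1. With quantile scaling they were 6 and 1, then 7 and 1. Between 12 h and 8 h, 8 were called with no minimum fold change, and leaving out 1 library gave 2 to 4. For the genotype mean over the 3 times, leaving out 1 library gave 0 to 1. Over all genes tested, the genotype calls were 12, 11 and 16 at the 3 times. They became 220 without wt M0 replicate 1, 599 without Treml4-/- M1-8 h replicate 1 and 79 without wt M1-12 h replicate 1 (at the time of the library left out), and lay between 5 and 21 under every other alternative, while the 10 genes stayed at 0. Without wt M0 replicate 1 the interaction at 12 h had 33 calls in place of 1, and 7291 in place of 3885 genes were called between 12 h and 8 h with no minimum fold change. The genotype mean over the 3 times had 21 to 183 calls when 1 library was left out and 119 with no minimum fold change, in place of 50. The sample titles repeat the replicate numbers across times and genotypes without saying that libraries shared a mouse or culture, and the numbers were not taken as pairing: deviations of same-numbered libraries correlated at -0.264, 0.297 and 0.056 between genotypes in the order of time, at 0.125 (M0 and 8 h), 0.062 (M0 and 12 h) and 0.406 (8 h and 12 h) within wt, and at 0.462, -0.199 and -0.272 within Treml4-/- cells. With the replicate number as a block, or as a block within genotype, 6, 7 and 3 of the 10 genes were called for 8 h, 12 h and 12 h against 8 h, as without it, and 0 between genotypes with the former. With a random block within genotype, added after the values were seen, 0 of the 10 and 36 of all genes were called in the genotype mean over the 3 times, in place of 0 and 50. Directions turned with the scaling. With median of ratios and quantile scaling, respectively, log2 fold changes with 8 h of LPS were 0.0605 and 0.0755 for Tirap and 0.14 and 0.34 for Ticam2, and at 12 h they were 0.65 and 0.61 for Tirap, while Irak4 was 0.0177 at 12 h with median of ratios only. Genotype differences near zero also turned: Irak2 at M1-12 h (0.0805 and 0.00288), Irak4 before LPS (0.0295 and 0.0386), after 8 h (0.0461 and 4.1e-04) and in the mean (0.0209 and 0.00146), Ticam1 at M1-12 h (0.0209, median of ratios) and Tirap in the mean (0.00365, quantile). In Treml4-/- libraries alone, Ticam2 at 12 h was -0.0186. Leaving out 1 library at a time gave ranges that crossed zero for Ly96 at 8 h (-0.064 to 0.31) and Ticam2 at 12 h of LPS (-0.15 to 0.18). It did so too for the genotype differences of Irak2 (-0.027 to 0.10), Irak4 (-0.094 to 0.0772), Myd88 (-0.0365 to 0.0921) and Ticam1 (-0.053 to 0.15) at M0, of Irak1 (-0.0555 to 0.12) and Ly96 (-0.72 to 0.0254) at M1-8 h, and of Irak1 (-0.0939 to 0.17), Irak2 (-0.11 to 0.10), Ly96 (-0.27 to 0.0057), Ticam1 (-0.18 to 0.0451) and Ticam2 (-0.18 to 0.47) at M1-12 h. Where leaving out 1 library left a condition with a single sample, that sample was assumed to vary like the other conditions. The cause of the shift with scaling was not tested, and no spike-in was used here that would set an absolute scale. With 2 replicates per condition, a gene that was not called may still differ by an amount within its confidence interval.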
